A study of Mus musculus with 12 samples.

Results

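The unfolded protein response and the integrated stress response were examined through 34 listed genes in mouse microglia in culture, the macrophages that live in the brain. The genes were chosen by symbol, by matching the Ensembl identifiers of the deposited count table to GENCODE M21 (GRCm38). All 34 were found among the 52636 rows of the table, and 33 of them were among the 14687 genes with enough counts for a test. Derl3 was the exception, with 1 to 12 counts per library. The cells were wild-type C57BL/6 microglia from the brains of pups at postnatal day 1 to 2, which had been shaken off mixed glia; each well held 50000 cells and 2.5 ng of the growth factor CSF1. For 24 h they received the full-length form of neurofilament light chain (NfL, 5 µg), an axonal filament subunit that damaged neurons shed, its coiled-coil part (5 µg), or vehicle. Each of the 3 groups had 4 libraries, and replicates 1 to 4 of every group carried the batch labels b1 to b4. Nothing in the labels says whether a batch was a separate culture or litter, and p-values here speak only to variation among these libraries, which may be technical.

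The endoplasmic reticulum (ER) folds secreted and membrane proteins with chaperones and disulfide isomerases, and sends proteins that fail to fold to the cytosol for degradation. When unfolded proteins build up, the sensors IRE1, PERK and ATF6 start the unfolded protein response, whose transcription factors XBP1 and cleaved ATF6 raise the genes of folding and degradation. PERK and other kinases that phosphorylate eIF2α start the integrated stress response, in which translation falls while ATF4 is made and drives genes of amino acid supply and, with CHOP, of stress-induced death. Secretory activity of immune cells, including microglia that release cytokines, draws on the same folding machinery.

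Promoter stretches of 8 members are shown because they carry the short motifs by which these branches are usually recognised. The promoter sequences are those of RefSeq on GRCm38.p6, from 250 bases before to 50 bases after each start site, and 30 of the 34 members had one; Hyou1, Manf, Derl1 and Atf6 had none in the table. The motifs searched, on both strands, were the ER stress element ERSE (CCAAT, any 9 bases, then CCACG), its variant ERSE-II (ATTGG, any 1 base, then CCACG), the XBP1-type element UPRE (TGACGTGG) and the C/EBP-ATF response element CARE (TGATGNAA) that ATF4 binds. No position of a motif is shared with another in the stretches below. Capitals mark the fixed letters of a motif, and each stretch is given 5′ to 3′ on the strand of its gene.
Hspa5: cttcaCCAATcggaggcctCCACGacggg
Calr: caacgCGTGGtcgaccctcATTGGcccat
Pdia6: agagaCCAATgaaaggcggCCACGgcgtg
Hsp90b1: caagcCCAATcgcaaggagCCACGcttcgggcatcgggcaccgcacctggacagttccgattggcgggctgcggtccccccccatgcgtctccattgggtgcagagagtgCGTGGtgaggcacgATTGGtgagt
Herpud1: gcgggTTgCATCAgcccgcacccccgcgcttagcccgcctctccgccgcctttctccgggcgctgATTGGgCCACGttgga
Chac1: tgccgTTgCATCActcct
Asns: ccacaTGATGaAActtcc
Atf3: cgcacTTgCATCAccaag

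The Hspa5 stretch lies at chr2:34772020-34772048 on the plus strand, with its ERSE at -65 to -47 from the RefSeq start site; GENCODE places these bases inside the first exon of a transcript that starts further upstream. Calr has its ERSE in the reverse orientation at -162 to -144 (chr8:84847070-84847098, minus strand), and Pdia6 has one at -98 to -80 (chr12:17266486-17266514, plus strand). The Hsp90b1 stretch (chr10:86705528-86705661, minus strand) holds 2 ERSEs, 1 in each orientation. Herpud1 joins both kinds of element, a CARE at -112 to -105 and an ERSE-II at -52 to -42 (chr8:94386312-94386392, plus strand). CARE matches stand at -193 to -186 in Chac1 (chr2:119351044-119351061, plus strand), at -23 to -16 in Asns (chr6:7693220-7693237, minus strand) and at -110 to -103 in Atf3 (chr1:191183431-191183448, minus strand). The Asns match lies inside the first exon in GENCODE.

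ERSE matches were found in 9 of the 30 members, against 0.119% of 32851 RefSeq promoters of the same length (0.137% of their 27025 genes). They were in the chaperone genes Hspa5, Hsp90b1 and Dnajc3, in the lectin and disulfide genes Calr, Canx, Pdia6 and Creld2, and in the degradation genes Syvn1 and Derl3. ERSE-II was found in Herpud1 and, after the start site at 7 to 17, in Dnajb11, against 0.0365% of promoters (0.0444% of genes). CARE was found in 5 members, against 3.97% of promoters (4.51% of genes): Herpud1, Atf3, Chac1, Asns and, at 14 to 21 after the start site, Trib3. These letters of the UPRE were in none of the 30 members and in 0.676% of promoters (0.714% of genes). The matches describe sequence and were not read as binding sites. The members were chosen as genes of these responses, so their shares are no independent test of the motifs.

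Total counts ran from 20162427 to 31048044 per library. Levels are given as CPM, read counts relative to the library total, scaled with TMM factors. The 34 genes together held 0.845% to 0.918% of the counts with full-length NfL, 0.644% to 0.786% with coiled-coil NfL and 0.624% to 0.774% with vehicle. The summed level of 12 microglial markers, such as Csf1r and C1qa, was 14234 to 17145 CPM with full-length NfL, 15334 to 18276 CPM with coiled-coil NfL and 14793 to 19546 CPM with vehicle. The summed levels of 10 neuronal markers were far lower, at 16.5 to 38.2, 21.7 to 55.9 and 26.2 to 67.4 CPM in the same order of groups, and those of 10 astrocyte markers were 24.1 to 39.3, 24.4 to 55.2 and 26.7 to 63.5 CPM. Each full-length library was below the vehicle library of its batch in the neuronal sum, and 2 of the 8 tested neuronal markers and 1 of the 10 astrocyte markers fell against vehicle (8 and 8 with the batch as a block). A sum over 10 fibroblast and mural markers was 69.6 to 523 CPM with full-length NfL, 135 to 1494 CPM with coiled-coil NfL and 245 to 1408 CPM with vehicle, and none of its 7 tested genes passed the test (3 fell with the block). Nearly all of this sum was Fn1, with means of 220, 511 and 608 CPM in the same order of groups. Acta2 came next, with means of 1.80, 2.60 and 3.85 CPM, so the sum mainly follows 1 gene. The sum over 8 endothelial markers was 42.5 to 54.1 CPM with full-length NfL, 54.9 to 75.9 CPM with coiled-coil NfL and 57.2 to 106 CPM with vehicle, so that full-length and vehicle libraries did not overlap. Among single tested genes, 11.4% had every full-length library below every vehicle library. Flt1 was the largest part of the endothelial sum, with means of 26.0, 43.9 and 59.6 CPM in the same order of groups. The sum therefore mainly follows 1 gene. Of its 5 tested genes, Flt1 fell (-1.20, adjusted p = 0.0207) and Cdh5 rose (1.34, adjusted p = 0.0153), while Cldn5 and Emcn had no count in any library. Oligodendrocyte markers, 10 in all, summed to 249.7 to 264 CPM, 241 to 297 CPM and 243 to 278 CPM in the same order of groups. This sum hides opposite differences in its largest parts. Cnp had means of 149, 123 and 110 CPM, and Mbp 74.3, 98.5 and 104 CPM. With full-length NfL against vehicle, 1 of the 9 tested genes rose and 0 fell (2 and 5 with the block), and 7 of the 9 had negative log2 fold changes. The sum over 8 markers of B and plasma cells, which are rich in ER chaperones, was 1.25 to 2.13 CPM with full-length NfL, 1.08 to 1.91 CPM with coiled-coil NfL and 0.778 to 1.41 CPM with vehicle. Cd79b, the 1 tested gene of that list, rose to 1.40 ± 0.272 CPM with full-length NfL, against 0.475 ± 0.0675 CPM with vehicle (1.56 ± 0.27, adjusted p = 0.00269). Ms4a1, Tnfrsf17 and Jchain, too low for a test, had means of 0.0960, 0.147 and 0.0419 CPM with full-length NfL. Their means with vehicle were higher, at 0.285, 0.268 and 0.0634 CPM. Mzb1 and Pou2af1 had no count in any of the 12 libraries. Mitochondrial genes held 0.210% to 0.372% of the counts with full-length NfL, 0.256% to 0.450% with coiled-coil NfL and 0.400% to 0.518% with vehicle, with every full-length library below every vehicle library. The part of these other cells and of the mitochondrial share in the results below was not tested. In bulk RNA, fewer cells of a type and less RNA per cell cannot be told apart.

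Per kilobase of exon, the folding genes were the most abundant members in vehicle cells. Calr had 261 ± 67.0 CPM per kilobase, Hspa5 203 ± 59.8, Pdia3 191 ± 42.1 and P4hb 177 ± 21.2 (SD, n = 4 each), and neighbours in this order did not differ beyond their spread. Among the transcription factors Atf3 stood at 115 ± 10.2 and Atf4 at 62.2 ± 4.19 CPM per kilobase. The sensors were lower, with 25.4 ± 1.80 for Atf6, 8.20 ± 0.832 for Ern1 and 6.41 ± 0.248 for Eif2ak3. Trib3 (2.07 ± 0.965), Chac1 (0.581 ± 0.226) and Derl3 (0.105 ± 0.0581) were the least abundant members in vehicle cells.

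Full-length NfL against vehicle asked what the whole protein does to these genes. With full-length NfL, 18 of the 33 tested members rose and 2 fell, whereas 14.0% of all tested genes rose and 10.9% fell, 24.9% together (edgeR quasi-likelihood F test, adjusted p under 0.05 over all tested genes). The median log2 fold change over the members was 0.50, against -0.02 over all tested genes. By role, the medians were 1.91 for 6 targets and partners of ATF4 and CHOP, 0.52 for 7 lectin chaperones and disulfide isomerases, 0.44 for 8 lumenal chaperones, 0.13 for 7 tested degradation genes and -0.04 for 5 sensors and transcription factors. In 14 members every full-length library was above every vehicle library, and in 2 every one was below, against 14.5% and 11.4% of all tested genes. Across the 4 batches, 22 members were higher in all 4 and 2 lower in all 4. The share of all tested genes that did so is not given, so these counts stand without a background. With the batch as a block, 21 members rose and 2 fell, against 21.4% and 22.4% of all tested genes. The count of rising members ran from 13 to 20 when single libraries were left out, with 13 without full-length replicate 2, 15 without vehicle replicate 1 or vehicle replicate 4, and 20 without vehicle replicate 3.

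**Figure D1:**
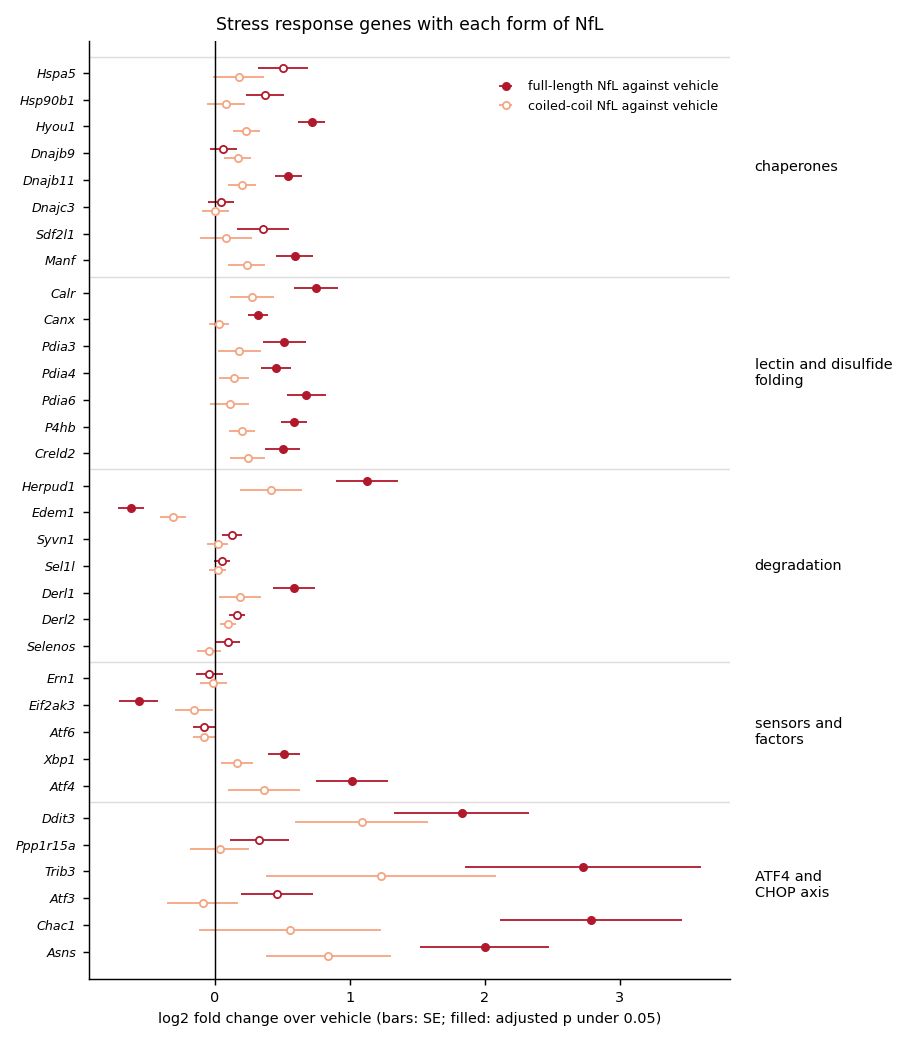
Log2 fold change of each tested member against vehicle (points, horizontal axis) with its SE (lines), by role, for full-length NfL and coiled-coil NfL (edgeR, 4 libraries per group); filled points passed the test. Most folding genes lie right of 0 with full-length NfL, Chac1 (2.79) and Trib3 (2.73) lie farthest right, and Edem1 (-0.62) and Eif2ak3 (-0.56) lie left of 0.

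Among the 8 lumenal chaperones, Hyou1, Dnajb11 and Manf rose and none fell. Hyou1, which recharges BiP with ATP as its nucleotide exchange factor, had 195, 183, 179.7 and 181 CPM in full-length replicates 1 to 4, 112, 154, 125 and 138 CPM with coiled-coil NfL, and 112, 109, 129 and 98.7 CPM with vehicle. All full-length libraries were above all others, and they lay within 1.09-fold of each other. Its log2 fold change against vehicle was 0.72 ± 0.10 (SE; adjusted p = 0.00102), the smallest p among the members. Dnajb11, the co-chaperone ERdj3, had 152, 170.3, 172 and 169.9 CPM with full-length NfL, 111, 147, 134 and 132 CPM with coiled-coil NfL and 109, 111, 135 and 99.8 CPM with vehicle. It rose by 0.55 ± 0.10 (adjusted p = 0.00378) with no overlap between full-length and vehicle libraries. Manf, a small ER protein that can be secreted and that binds BiP, had 77.2, 59.3, 69.4 and 65.6 CPM with full-length NfL, 45.1, 56.1, 60.9 and 50.1 CPM with coiled-coil NfL and 38.7, 42.8, 57.7 and 40.8 CPM with vehicle. Its lowest full-length library was just above the highest vehicle library, and it rose by 0.59 ± 0.13 (adjusted p = 0.00878).

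Hspa5, the gene of BiP, is the central Hsp70 chaperone of the ER and the usual read-out of this response. It had 1175, 1143, 1388 and 1176 CPM with full-length NfL, 719.7, 1053, 1126 and 987 CPM with coiled-coil NfL, and 676, 831, 1224 and 704 CPM with vehicle. Vehicle replicate 3 lay above 3 of the 4 full-length libraries, while within each batch the full-length library was the higher one. The log2 difference was 0.51 ± 0.19 and did not pass (adjusted p = 0.0678); with the batch as a block it was 0.54 (adjusted p = 0.00319), and without vehicle replicate 3 it was 0.73 (adjusted p = 0.00623). Hsp90b1, the ER form of Hsp90, had 661, 636, 744 and 638 CPM with full-length NfL, 494, 489, 689.5 and 523 CPM with coiled-coil NfL and 455, 468, 666 and 480.1 CPM with vehicle. Its difference from vehicle was 0.37 ± 0.14 (adjusted p = 0.0740; 0.00146 with the block, and 0.0109 without vehicle replicate 3). Sdf2l1, a partner of ERdj3, averaged 60.1 ± 11.7 CPM with full-length NfL and 46.9 ± 13.9 CPM with vehicle (SD, n = 4 each; adjusted p = 0.189, 0.0258 with the block and 0.0155 without vehicle replicate 3). Dnajb9 and Dnajc3, J-domain partners of BiP, had log2 differences of 0.06 ± 0.10 and 0.05 ± 0.10, with 95% intervals of -0.17 to 0.30 and -0.18 to 0.27.

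All 7 lectin chaperones and disulfide genes rose with full-length NfL. Calr, the calcium-binding lectin chaperone calreticulin, had 1250.5, 1243, 1351 and 1221 CPM with full-length NfL, 727, 972, 1063 and 883 CPM with coiled-coil NfL, and 666, 679, 1040.0 and 626 CPM with vehicle. Its log2 fold change against vehicle was 0.75 ± 0.16 (adjusted p = 0.00673), and every full-length library was above every other library. Pdia6, a disulfide isomerase that also restrains IRE1, had 278, 256, 290.1 and 257 CPM with full-length NfL, 153, 184, 212 and 181 CPM with coiled-coil NfL and 144, 158, 228 and 146 CPM with vehicle. It rose by 0.68 ± 0.14 (adjusted p = 0.00668), again with no overlap. P4hb, the prototype protein disulfide isomerase, averaged 758 ± 39.2 CPM with full-length NfL, 580.1 ± 49.8 CPM with coiled-coil NfL and 505 ± 60.7 CPM with vehicle, a rise of 0.59 ± 0.10 over vehicle (adjusted p = 0.00196).

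Canx, the membrane-bound lectin calnexin, showed the smallest rise of the 7 folding genes, 0.32 ± 0.07 (adjusted p = 0.00991), with 741, 835, 774 and 774 CPM with full-length NfL, 589, 650.1, 663 and 654 CPM with coiled-coil NfL and 587, 625, 683 and 612 CPM with vehicle. Full-length and vehicle libraries did not overlap. Pdia4, an isomerase of the BiP complex, rose by 0.45 ± 0.11 (adjusted p = 0.0135) and Creld2, a secreted ER protein with isomerase activity, by 0.50 ± 0.13 (adjusted p = 0.0153). In both, vehicle replicate 3 was above the lowest full-length library. Pdia3, the isomerase that works with calnexin and calreticulin, had 767, 809, 1046 and 798 CPM with full-length NfL, 577, 658, 826 and 652 CPM with coiled-coil NfL and 528, 533, 796 and 535 CPM with vehicle. Batch 3 was highest in every group. Its rise of 0.52 ± 0.16 (adjusted p = 0.0350) no longer passed without full-length replicate 2 or 3 or vehicle replicate 1, 2 or 4, with adjusted p-values of 0.0527 to 0.0933, and had an adjusted p of 0.000175 with the block.

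**Figure D2:**
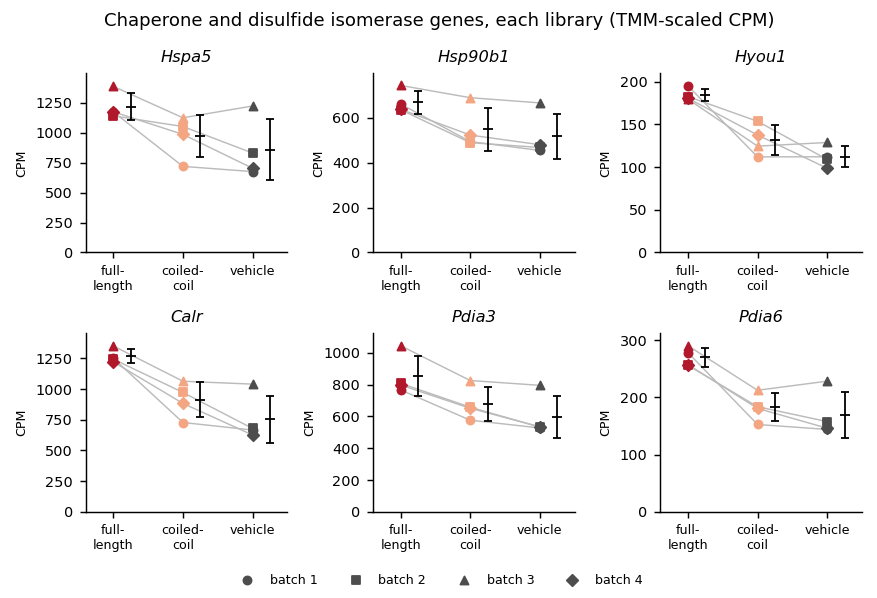
TMM-scaled CPM of 6 chaperone and disulfide isomerase genes in each library (vertical axes from 0), by group; symbols mark the batch, grey lines join libraries of a batch, and black bars give the mean and SD over 4 libraries. Vehicle replicate 3 (triangle) lies above the other vehicle libraries in all 6 genes, for example 1224 CPM of Hspa5, and each full-length library lies above the vehicle library of its batch.

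Vehicle replicate 3 carried the highest vehicle level of 8 of the 8 lumenal chaperones, 7 of the 7 lectin and disulfide genes and 6 of the 7 tested degradation genes. The share of all tested genes with their highest vehicle level in this library is not given, so these counts stand without a background. Within batch 3 the median difference between full-length NfL and vehicle was the smallest of the 4 batches, 0.17 over the lumenal chaperones, against 0.67, 0.45 and 0.55 in batches 1, 2 and 4. The lectin and disulfide genes had medians of 0.35 in batch 3 and 0.63, 0.60 and 0.58 in the other three. Batch 3 also had the lowest sums of neuronal and astrocyte markers in every group, with 16.5, 21.7 and 26.2 CPM of neuronal markers with full-length NfL, coiled-coil NfL and vehicle. Their part in the chaperone levels was not tested.

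Of the 7 tested genes of ER-associated degradation, Herpud1 and Derl1 rose, Edem1 fell and 4 did not pass. Herpud1, which organises the HRD1 ubiquitin ligase complex, had 73.9, 86.4, 60.1 and 70.9 CPM with full-length NfL, 26.2, 51.9, 51.7 and 47.8 CPM with coiled-coil NfL and 34.4, 26.1, 46.6 and 26.0 CPM with vehicle. Every full-length library was above every other library, and the rise over vehicle was 1.13 ± 0.23 (adjusted p = 0.00556), larger than that of any folding gene listed. Derl1, a membrane protein of the retrotranslocation channel, had 144, 238, 169 and 202 CPM with full-length NfL, 111, 165, 139.6 and 153 CPM with coiled-coil NfL and 115, 125, 141 and 119 CPM with vehicle. The rise was 0.59 ± 0.16 (adjusted p = 0.0173), and without full-length replicate 2 it was 0.46 (adjusted p = 0.0519).

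Edem1 went the other way. This gene encodes a mannosidase-like protein that marks misfolded glycoproteins for degradation and is a classic XBP1 target. It had 353, 336, 383 and 341 CPM with full-length NfL, 530.4, 381, 434 and 409 CPM with coiled-coil NfL and 514, 569, 529 and 558 CPM with vehicle. All full-length libraries were below all vehicle libraries, and the log2 fold change was -0.62 ± 0.10 (adjusted p = 0.00162). Coiled-coil replicate 1 lay among the vehicle libraries, and the other coiled-coil libraries lay below all of them.

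The ubiquitin ligase core did not pass the test. Syvn1, the ubiquitin ligase HRD1, averaged 71.5 ± 1.27 CPM with full-length NfL and 65.5 ± 6.09 CPM with vehicle, a log2 difference of 0.13 with a 95% interval of -0.05 to 0.30. Sel1l, its adaptor, averaged 302 ± 19.2 CPM with full-length NfL and 292 ± 9.68 CPM with vehicle (0.05, interval -0.09 to 0.19). Selenos, a selenoprotein that recruits the ATPase p97, had a difference of 0.10 (interval -0.10 to 0.30). Derl2 was higher in all 4 full-length libraries than in any vehicle library, by 0.16 ± 0.06, and did not pass (adjusted p = 0.0705, and 0.0526 with the block). Derl3 was at 0.0402 to 0.170 CPM with full-length NfL, 0.0384 to 0.458 CPM with coiled-coil NfL and 0.0838 to 0.362 CPM with vehicle, too few counts for a comparison.

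**Figure D3:**
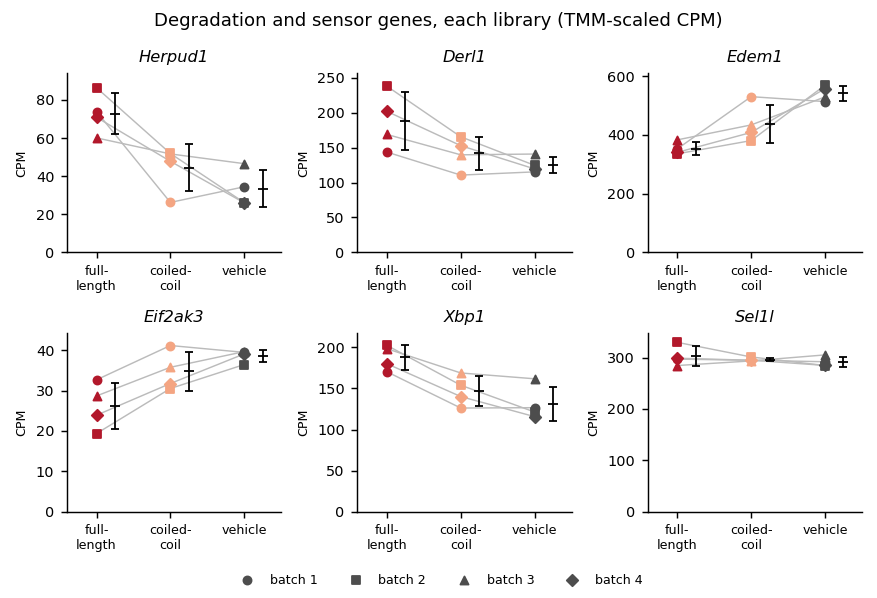
TMM-scaled CPM of 4 degradation genes and 2 genes of sensors and factors in each library (vertical axes from 0), by group; symbols mark the batch, grey lines join libraries of a batch, and black bars give the mean and SD over 4 libraries. Herpud1, Derl1 and Xbp1 are higher and Edem1 and Eif2ak3 lower with full-length NfL than with vehicle, while Sel1l stays between 285 and 329.6 CPM.

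Of the 3 sensors, Eif2ak3 fell and neither Ern1 nor Atf6 passed the test. Eif2ak3, which encodes PERK, had 32.7, 19.4, 28.7 and 23.9 CPM with full-length NfL, 41.2, 30.5, 35.8 and 31.8 CPM with coiled-coil NfL and 39.5, 36.4, 39.6 and 39.1 CPM with vehicle. Full-length and vehicle libraries did not overlap, and the log2 fold change was -0.56 ± 0.14 (adjusted p = 0.0149). Ern1, which encodes IRE1α, averaged 65.2 ± 8.05 CPM with full-length NfL and 67.0 ± 6.80 CPM with vehicle, and Atf6 222 ± 25.5 and 234 ± 16.6 CPM in the same groups. Their differences were -0.04 (interval -0.26 to 0.19) and -0.08 (interval -0.27 to 0.12).

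The transcripts of both downstream factors rose. Xbp1, whose mRNA IRE1 splices into its active form, had 170.3, 202, 198 and 180.1 CPM with full-length NfL, 126, 154, 169 and 140.2 CPM with coiled-coil NfL and 127, 121, 162 and 116 CPM with vehicle. It rose by 0.52 ± 0.12 (adjusted p = 0.00895). Gene-level counts do not separate spliced from unspliced Xbp1. Atf4 had 183, 452, 232 and 318 CPM with full-length NfL, 134, 265, 147 and 208 CPM with coiled-coil NfL and 141, 159.8, 137 and 148 CPM with vehicle. All full-length libraries were above all vehicle libraries, with replicate 2 the highest, and the rise was 1.01 ± 0.27 (adjusted p = 0.0168). Without full-length replicate 2 it was 0.74 (adjusted p = 0.0545).

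Of the 6 targets and partners of ATF4 and CHOP, Ddit3, Trib3, Chac1 and Asns rose with full-length NfL, and Ppp1r15a and Atf3 did not pass. These 4 rises were the largest among the tested members. Chac1, an enzyme that breaks down glutathione, had 1.66, 13.3, 2.64 and 8.92 CPM with full-length NfL, 0.496, 2.53, 0.853 and 1.65 CPM with coiled-coil NfL and 0.608, 1.13, 0.683 and 1.38 CPM with vehicle. The full-length values rest on 49 to 330 counts and the vehicle values on 14 to 32. No full-length library overlapped with vehicle, and the rise was 2.79 ± 0.67 (adjusted p = 0.0117). Asns, asparagine synthetase, had 40.7, 157, 61.6 and 84.9 CPM with full-length NfL, 16.8, 65.0, 22.5 and 49.6 CPM with coiled-coil NfL and 16.8, 30.1, 16.5 and 22.6 CPM with vehicle. It rose by 2.00 ± 0.47 (adjusted p = 0.0108), also with no overlap.

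Ddit3, the gene of the transcription factor CHOP, had 29.2, 129, 76.4 and 86.6 CPM with full-length NfL, 15.5, 77.9, 40.3 and 58.6 CPM with coiled-coil NfL and 12.6, 24.5, 31.8 and 21.4 CPM with vehicle. Full-length replicate 1 overlapped with the vehicle libraries, and in each batch the full-length library was above the vehicle one. The rise was 1.83 ± 0.50 (adjusted p = 0.0201), which did not pass without full-length replicate 2 (0.0649), vehicle replicate 1 (0.0548) or vehicle replicate 4 (0.0537). Trib3, a pseudokinase that CHOP and ATF4 induce and that restrains them, had 4.89, 65.8, 15.8 and 30.1 CPM with full-length NfL, 1.64, 23.0, 2.61 and 13.7 CPM with coiled-coil NfL and 3.65, 6.99, 2.13 and 4.80 CPM with vehicle. Full-length replicate 1 lay within the vehicle range and the other three well above it. The rise of 2.73 ± 0.87 (adjusted p = 0.0396) did not pass when any 1 of full-length replicates 2 and 4, coiled-coil replicate 4 or the 4 vehicle libraries was left out (0.0530 to 0.137), and had an adjusted p of 0.000940 with the block.

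Atf3, a stress-induced repressor that immune signals also induce, had 166, 524, 273 and 396 CPM with full-length NfL, 238, 265, 189 and 234 CPM with coiled-coil NfL and 221, 268, 237 and 261 CPM with vehicle. Full-length replicate 1 was the lowest of all 12 libraries and full-length replicates 2, 3 and 4 the highest, and the difference was 0.46 ± 0.26 (adjusted p = 0.220). Without full-length replicate 1 it was 0.69 (adjusted p = 0.0233). Ppp1r15a, the GADD34 subunit that brings a phosphatase to eIF2α, had 15.9, 33.2, 14.9 and 21.7 CPM with full-length NfL and 19.1, 16.4, 15.5 and 17.2 CPM with vehicle, a difference of 0.33 (interval -0.16 to 0.82).

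**Figure D4:**
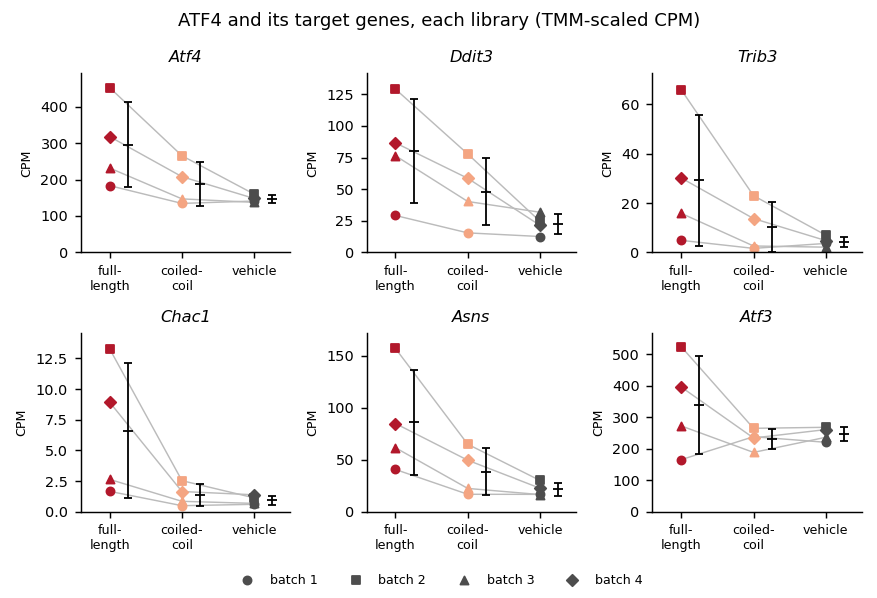
TMM-scaled CPM of Atf4 and of targets and partners of ATF4 and CHOP in each library (vertical axes from 0), by group; symbols mark the batch, grey lines join libraries of a batch, and black bars give the mean and SD over 4 libraries. Full-length replicate 2 (square) is the highest full-length library in every panel, with 65.8 CPM of Trib3, and full-length replicate 1 (circle) is near the vehicle libraries for Trib3 (4.89 CPM).

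Chaperones and ATF4 targets ranked the libraries differently. Full-length replicate 2 was the highest full-length library for 6 of 6 ATF4 and CHOP genes, and coiled-coil replicate 2 the highest coiled-coil library for 6 of 6. Among the 8 lumenal chaperones full-length replicate 2 was the highest for 0 and the lowest for 5. The shares of all tested genes with these ranks are not given, so these counts also stand without a background. The highest full-length library was 13.5-fold above the lowest for Trib3, 7.97-fold for Chac1, 4.42-fold for Ddit3 and 3.86-fold for Asns, against 1.21-fold for Hspa5 and 1.11-fold for Calr. By batch, the median difference of ATF4 and CHOP genes between full-length NfL and vehicle was 0.81, 2.39, 1.55 and 1.96 in batches 1 to 4 (log2 CPM with a prior count of 2), while the degradation genes had medians of 0.12, 0.21, -0.06 and 0.18. Full-length replicate 2 had the lowest share of mitochondrial counts of the 12 libraries, 0.210%, and the part of library quality in this order was not tested.

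**Figure D5:**
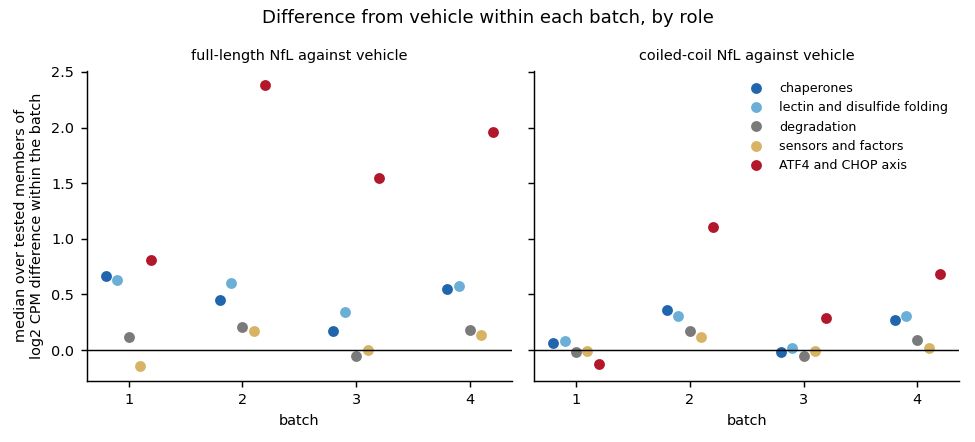
Median over the tested members of a role of the log2 CPM difference from the vehicle library of the same batch (vertical axis), by batch (horizontal axis), for full-length NfL (left) and coiled-coil NfL (right). ATF4 and CHOP genes are highest in batch 2 with both forms, 2.39 with full-length NfL and 1.11 with coiled-coil NfL, and the chaperones are smallest in batch 3, 0.17 and -0.02.

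Coiled-coil NfL against vehicle asked the same of the rod part of the protein. No member passed the test, and neither did any of the 14687 genes (0%, edgeR). At an unadjusted p under 0.05 there were 3 of the 33 tested members, Hyou1, Edem1 and Ddit3, and 1082 genes (7.37% of all tested genes). The count of members is near that share and was not read as a result about them. DESeq2 called 34 genes and no member, with an adjusted p not given for 13 members, and edgeR with the batch as a block called no member and 2 genes, 1 higher and 1 lower (0.00681% each). In no member were all coiled-coil libraries above or all below the vehicle libraries, against 1.42% and 1.31% of all tested genes. The median log2 difference over the members was 0.16, against 0.00 over all tested genes. In all 4 batches 8 members were higher and 0 lower, again without a share over all tested genes. Hyou1 averaged 132 ± 17.9 CPM with coiled-coil NfL and 112 ± 12.5 CPM with vehicle (0.23, 95% interval 0.00 to 0.46, adjusted p = 0.674). Edem1 averaged 438 ± 65.0 CPM with coiled-coil NfL and 543 ± 25.5 CPM with vehicle (-0.31, interval -0.53 to -0.09, adjusted p = 0.646). Ddit3 averaged 48.1 ± 26.6 CPM with coiled-coil NfL and 22.6 ± 7.95 CPM with vehicle (1.09, interval -0.02 to 2.20, adjusted p = 0.676). Its interval includes 0 because the intervals use fewer degrees of freedom than the F test.

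For ATF4 and its targets the coiled-coil intervals were wide, and for the folding genes narrower. For Asns the coiled-coil difference was 0.84 (interval -0.21 to 1.89), for Atf4 0.36 (interval -0.23 to 0.96) and for Chac1 0.56 (interval -0.97 to 2.09). For Canx it was 0.03 (interval -0.14 to 0.20) and for Pdia6 0.11 (interval -0.22 to 0.44). The coiled-coil libraries split by batch: the ATF4 and CHOP genes had median differences from vehicle of 1.11 and 0.69 in batches 2 and 4, and of -0.12 and 0.29 in batches 1 and 3. The lumenal chaperones followed the same split, with 0.36 and 0.27 in batches 2 and 4 and 0.06 and -0.02 in batches 1 and 3.

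Full-length NfL against coiled-coil NfL tested the difference between the forms directly. Hyou1 was the 1 member that passed, higher with full-length NfL by 0.48 ± 0.10 (adjusted p = 0.0345); 1.38% of all tested genes were higher and 1.34% lower, 2.72% together. Its call was lost without full-length replicate 2 or 4 or coiled-coil replicate 1, 3 or 4, with adjusted p-values of 0.0571 to 0.1002, and when only these groups were fitted (0.0578). With the batch as a block, 18 members were higher with full-length NfL and 2 lower, against 8.99% and 10.1% of all tested genes. DESeq2 without a block gave 8 higher and 1 lower, with 714 and 583 over all genes. The last counts are together 4.84% of genes with a p-value there, including genes that the edgeR filter removed. In 9 members every full-length library was above every coiled-coil library, and in 0 below, against 7.46% and 5.02% of all tested genes. Those 9 were Hspa5, Hyou1, Dnajb11, Calr, Canx, Pdia6, P4hb, Herpud1 and Xbp1. None of the 6 ATF4 and CHOP genes was among them. In all 4 batches 4 of the 6 were higher with full-length NfL, a count without a share over all tested genes.

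With the block, Chac1 was higher with full-length NfL than with coiled-coil NfL by 2.13 (adjusted p = 0.000884), Asns by 1.18 (adjusted p = 0.00169) and Pdia6 by 0.58 (adjusted p = 0.00331). Without it, the differences were 2.23 ± 0.65 for Chac1 (adjusted p = 0.0814), 1.16 ± 0.46 for Asns (adjusted p = 0.172) and 0.57 ± 0.14 for Pdia6 (adjusted p = 0.0581). Edem1 and Eif2ak3 were the 2 lower members with the block, by -0.31 (adjusted p = 0.0419) and -0.42 (adjusted p = 0.0115). For Atf6 and Sel1l the forms differed by 0.00 (interval -0.19 to 0.19) and 0.03 (interval -0.11 to 0.17). The comparisons with vehicle share the vehicle libraries, so their values stand side by side and were not correlated.

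The wider pathway was read from 4 further lists that do not contain the members. Of 33 tested ATF4 and CHOP targets, 17 rose with full-length NfL and 2 fell, against 14.0% and 10.9% of all tested genes, with a median of 0.57. Mthfd2, a mitochondrial enzyme of folate metabolism, averaged 143 ± 51.6 CPM with full-length NfL and 40.7 ± 5.27 CPM with vehicle (1.81 ± 0.34, adjusted p = 0.00386). Jdp2, an AP-1 family repressor (1.46 ± 0.25), and Aldh18a1, an enzyme of proline synthesis (1.17 ± 0.21), also rose. Bcl2l11, the death-promoting BIM that CHOP can induce, fell (-0.54 ± 0.10), as did Cebpg, a partner of ATF4 (-0.44 ± 0.09).

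Of 42 further genes of folding and the secretory route, 17 rose and 3 fell, against 14.0% and 10.9% of all tested genes, with a median of 0.22. Serp1, which stabilises membrane proteins at the translocon, averaged 966 ± 163 CPM with full-length NfL and 505 ± 67.1 CPM with vehicle (0.94 ± 0.13, adjusted p = 0.00108). Rpn1, a subunit of the oligosaccharyltransferase, rose by 0.53 ± 0.08 and Srp72, a part of the signal recognition particle, by 0.52 ± 0.08. The 3 that fell were Cnpy2 (-0.34 ± 0.11), Sec62 (-0.21 ± 0.07) and Ero1lb (-0.30 ± 0.10), the last an oxidase of disulfide formation.

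Of 26 further degradation genes, 5 rose and 4 fell with a median of 0.03, shares near the 14.0% and 10.9% of all tested genes. Vcp, the ATPase p97 that pulls proteins out of the membrane, averaged 105 ± 10.1 CPM with full-length NfL and 65.2 ± 1.47 CPM with vehicle (0.69 ± 0.09, adjusted p = 0.000561). Its cofactor Nploc4 rose by 0.48 ± 0.08 and the conjugating enzyme Ube2g2 by 0.35 ± 0.08. Svip, an inhibitor of degradation that binds p97, fell by 1.27 on the log2 scale, to 1.52 ± 0.474 CPM with full-length NfL, against 3.67 ± 1.20 CPM with vehicle. Edem3, of the same family as Edem1, fell (-0.28 ± 0.07), as did Fam8a1, a cofactor of HRD1 (-0.31 ± 0.08). Of 27 further genes of the sensors and of eIF2, 10 rose and 5 fell, against the same shares of all tested genes. Eif2s2 (0.72 ± 0.13), a subunit of eIF2, Eif2b3 (0.67 ± 0.11), a subunit of its exchange factor, and Ppp1ca (0.43 ± 0.09), a catalytic subunit of the phosphatase that GADD34 recruits, rose. Map3k5, a stress kinase downstream of IRE1 (-0.70 ± 0.12), Creb3l2, an ATF6-like factor (-0.57 ± 0.17), and Mbtps2, the protease that releases ATF6 (-0.25 ± 0.05), fell. With coiled-coil NfL none of these lists had a gene that passed (edgeR; 0 also with the block). Between the forms, 1 of the 33 ATF4 and CHOP targets, 2 of the 42 folding genes, 2 of the 26 degradation genes and 1 of the 27 sensor and eIF2 genes were higher with full-length NfL, and 1 of the last list was lower, against 1.38% higher and 1.34% lower of all tested genes. With the block, 14 of these ATF4 and CHOP targets were higher and 3 lower, and 12 and 1 of the folding genes. The degradation genes had 2 higher and 1 lower with the block, and the sensor and eIF2 genes 6 and 2. Of all tested genes, 8.99% were higher and 10.1% lower with the block.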

How the data were processed

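Polyadenylated RNA of the 12 libraries was sequenced with a stranded kit as single reads of 50 bases, per the labels. The authors deposited raw read counts per Ensembl gene; per the submitters' processing notes, GSNAP and GRCm38 were used. No source used here gives the version, counting tool, annotation or strand setting, so reads of overlapping or closely related genes may be split. Symbols were matched for 99.7% of 52636 identifiers.

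Genes were kept with filterByExpr (14687 genes, 99.9% of counts), scaled with TMM and fitted without a block in 1 edgeR quasi-likelihood model of 3 groups (9 residual degrees of freedom; R 4.3.3, edgeR 4.0.16). P-values of the two-sided F test were adjusted by Benjamini-Hochberg over all 14687 genes, with a threshold of 0.05. The SE is the absolute log2 fold change divided by the square root of F, and 95% intervals use t with 9 degrees of freedom. The F test adds prior degrees of freedom to these, so the intervals are somewhat wider than the test. To check the pairing, the mean of its group was subtracted from each gene's log2 CPM, and the remaining deviations were correlated across genes. These are not correlations of the expression levels themselves. Deviations of same-numbered libraries, which the labels put in 1 batch, correlated at 0.31 to 0.73 (12 of 12 pairs over 0.1). Those of different-numbered libraries of different groups correlated at -0.46 to 0.44, so the ranges overlapped. Deviations within a group cancel out, so positive values of same-numbered pairs draw the other values down. The replicate numbers were taken to pair the samples by their batch label. Calls, SE and intervals come from the fit that ignores this pairing, unless the block is named. The fit with the number as a block had 6 residual degrees of freedom. No 2 replicates agreed within sampling noise (chi-square per degree of freedom at least 8.74).

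Alternatives were DESeq2 size factors, upper-quartile scaling, no filter, DESeq2 1.42.0, the block, only the groups compared and leaving out each library. Data were simulated for full-length NfL against vehicle over 14687 genes, with 100 genes changed by 1.0 and 100 by 0.5 on the log2 scale. The test recovered 65% of changes of 1.0 and 10% of changes of 0.5, with 5 false calls. Far more genes were called in the real comparison, so these shares do not carry over to it. Members and lists were chosen with earlier results of these data known. All members are named; of each further list, up to 3 called genes per direction with the smallest p are named.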

Additional observations from a re-analysis of the deposited data

Results flagged for a closer look

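In 14 of 99 groups of 4 libraries, 1 library of a member stood apart by Dixon's test, which marks about 1 group in 20 by chance. Of these, 7 were high values of vehicle replicate 3: Hsp90b1 (666 CPM, against 455 to 480.1 in the other vehicle libraries), Sdf2l1 (67.7 CPM, against 38.1 to 42.0), Calr (1040.02 CPM, against 626 to 679.0), Pdia3 (796 CPM, against 528 to 535), Pdia6 (228 CPM, against 144 to 158), Creld2 (33.2 CPM, against 23.0 to 24.1) and Syvn1 (74.6 CPM, against 61.8 to 63.0). Batch 3 was also high in Hspa5 with full-length NfL (1388 CPM, against 1143 to 1176), in Pdia3 with full-length NfL (1045.6 CPM, against 767 to 809) and in Hsp90b1 with coiled-coil NfL (689.53 CPM, against 489 to 523). Full-length replicate 1 was low in Dnajb11 (152 CPM, against 169.95 to 172) and in Selenos (52.8 CPM, against 60.1 to 60.7). Coiled-coil replicate 1 was low in Herpud1 (26.2 CPM, against 47.8 to 51.9), and coiled-coil replicate 2 was high in Sel1l (301 CPM, against 293 to 295).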

How the results depend on the processing

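With full-length NfL against vehicle, 18 to 21 members were higher and 2 lower under every alternative scaling, filter, test and block, and 13 to 20 and 2 when single libraries were left out. Over all genes the count was 3656, 6432 with the replicate block and 2384 to 4084 without single libraries (2384 without full-length replicate 2, 2417 without vehicle replicate 4). With upper-quartile scaling 45.8% of these calls were higher, against 56.4% with TMM. For coiled-coil NfL against vehicle, the 0 calls became 34 with DESeq2, 2 with the replicate block and 0 to 26 without single libraries (26 without coiled-coil replicate 1). Between the forms, the 1 higher member became 2 with DESeq2 size factors, 3 with upper-quartile scaling, 2 with no filter, 8 with DESeq2, 18 with the replicate block and 0 to 4 without single libraries; the 0 lower members became 1, 2 and 0 to 1 with DESeq2, the block and single libraries left out. All genes called between the forms numbered 399, 1297 with DESeq2, 2806 with the replicate block, 168 with only these groups and 32 to 601 without single libraries. The causes were not tested, beyond the fewer samples of the last settings.

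Changes of sign touched 10 members with differences near 0. Against vehicle with full-length NfL, Dnajc3 was -0.00627 and Sel1l -0.00414 with upper-quartile scaling, and Dnajc3 ran from -0.000312 to 0.124 and Ern1 from -0.107 to 0.0400 without single libraries. With coiled-coil NfL, Dnajc3 was -0.00320 with DESeq2 size factors, -0.00113 with DESeq2 and -0.000823 with only these groups, and with upper-quartile scaling Dnajc3 was -0.0226, Syvn1 -0.00412 and Sel1l -0.00634. Without single libraries the coiled-coil ranges were -0.0449 to 0.0921 for Syvn1, -0.0775 to 0.0956 for Ppp1r15a, -0.0403 to 0.233 for Hsp90b1, -0.0563 to 0.0808 for Dnajc3, -0.00492 to 0.314 for Sdf2l1, -0.0612 to 0.0574 for Ern1, -0.00116 to 0.0737 for Canx and -0.0977 to 0.0356 for Selenos. Between the forms, Atf6 was -0.0288 with upper-quartile scaling and -0.00508 with the replicate block, and ran from -0.0647 to 0.0706, Dnajc3 from -0.000750 to 0.109, Ern1 from -0.0934 to 0.0539 and Sel1l from -0.00812 to 0.0603 without single libraries. The block changed no member call against vehicle beyond those of Hspa5, Hsp90b1 and Sdf2l1. Scaling moved the median of all genes by at most 0.06. With 4 libraries a group, changes of 0.5 were rarely recovered in simulated data that held 100 changed genes of each size. The real comparison of full-length NfL with vehicle had 3656 called genes, which makes the adjusted threshold less strict. The simulated share is therefore not the power of that comparison.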
